A study of Rattus norvegicus with 17 samples.

Results

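Rat cortical cultures labelled A53T and given 0.2 µM FK506 were set against cultures that carried an empty vector and received only DMSO, gene by gene. The comparison rests on 6 of 17 libraries, 3 in each group, chosen by their labels alone, and covers all 11247 gene labels of the deposited table. It asks which genes stood at the level of untreated vector cultures once A53T cultures had been given the lower of 2 doses, the one that the labels place below saturation.

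All libraries were made from primary glutamatergic neurons and astrocytes of the cerebral cortex of Rattus norvegicus, infected to carry the A53T variant of α-synuclein or a vector without it. Vector in DMSO was the reference group. Beside it and A53T at 0.2 µM FK506, values are given for A53T in DMSO (2 libraries), vector at 0.2 µM FK506 (3), vector at 2.0 µM (3) and A53T at 2.0 µM (3). The promoter that drives the A53T gene, the length of exposure, the age and strain of the animals and the number of cultures pooled in a library are not given in the sources used here. No label tells whether libraries of 1 group are separate cultures. Each p-value therefore rests on the spread among these libraries alone, and that spread may be technical.

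The protein α-synuclein sits at presynaptic terminals and binds vesicle membranes, and its A53T variant, found in families with inherited Parkinson's disease, aggregates more readily. It has been described to raise calcium in neurons for long periods, which activates calmodulin and the phosphatase calcineurin. Calcineurin removes phosphate from NFAT and CRTC proteins, which then enter the nucleus and drive transcription, CRTC together with CREB at cAMP response elements. FK506 binds the small protein FKBP12, and the pair blocks calcineurin. In mixed cortical cultures, neurons supply synaptic, channel and neuropeptide transcripts, and astrocytes supply much of the glycolytic and filament transcripts.

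The 3 libraries labelled A53T at 0.2 µM differ from the other 14 in ways that touch every result below. For any 2 libraries the squared difference of a gene was divided by its sum, and the median over genes was set against that of Poisson counts. For genes with mean values of 10 to 3000, this median was 0.995 to 1.05 times the Poisson value between any 2 of the 3. In the 13 pairs within the other groups it was 1.48 to 14.5 times. For genes with means of 3000 to 10000 it was 1.15 to 1.77 times between the 3 and 2.90 to 138 times in the other pairs. For genes with means over 10000 it was 1.70 to 3.51 times between the 3 and 8.78 to 821 times in the other pairs. By this median, with normalized values treated as counts, the 3 lay within sampling noise of each other up to means of 3000 and above it for abundant genes. Their mean entered as 1 sample. This leaves 15 samples in the fit and assumes that this lone sample varies like those of the other groups. In each of them 4513 to 4563 genes lay over 2-fold from the vector DMSO mean, against 15 to 2039 in the other 14 libraries. Their 100 highest genes held 13.6% of the normalized counts, against 15.9 to 20.02% elsewhere, and their median value was 589 to 592, against 491 to 520.

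The other 14 libraries varied inside their own groups along 1 leading axis of genes, which held 54.3% of the within-group variance. On this axis, in SD of the within-group scores and with vector DMSO at 0, A53T at 0.2 µM scored 6.75 to 6.81 and the rest -3.28 to 2.07. Across the 11247 genes, the axis loading and the difference between A53T at 0.2 µM and vector in DMSO had a Pearson r of 0.79. Genes are not independent replicates, and the vector libraries entered both measures. Differences are therefore also given with the axis score as a covariate, a fit that must extrapolate because no other library reaches such a score. What lies along this axis cannot be told apart from the effect of A53T and 0.2 µM FK506 in this design.

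**Figure D1:**
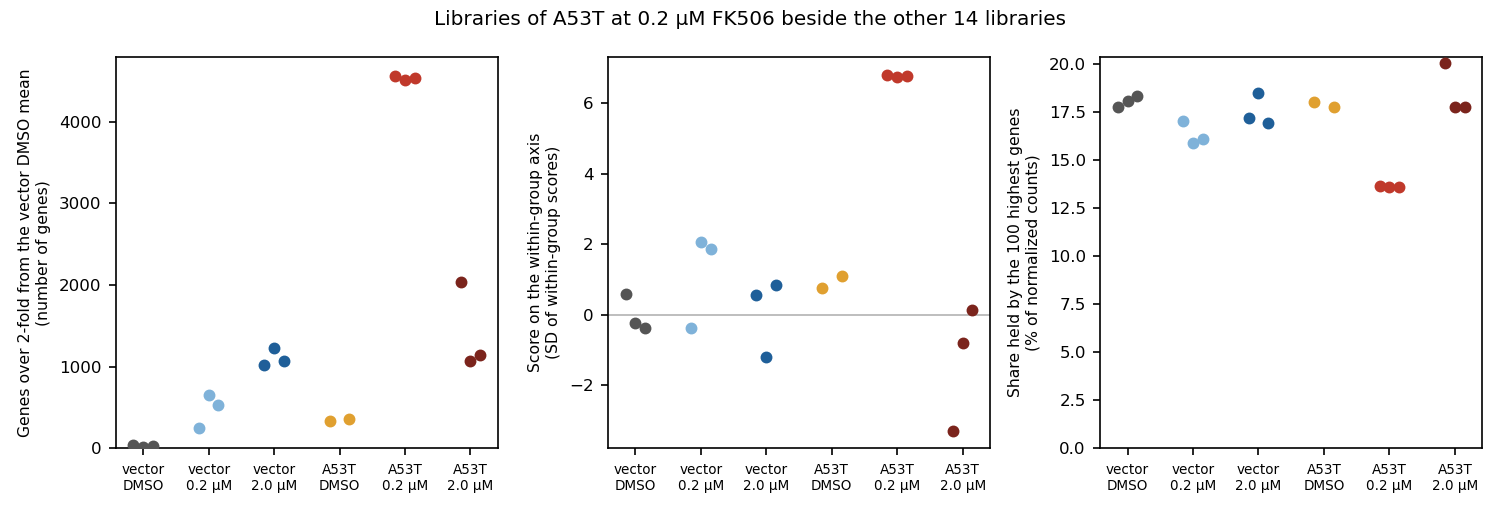
Measures of each of the 17 libraries by group: genes over 2-fold from the vector DMSO mean (left), the score on the leading within-group axis in SD (middle) and the share of normalized counts in the 100 highest genes in % (right). Each point is 1 library; the A53T libraries at 0.2 µM sit at 4513 to 4563 genes, at 6.75 to 6.81 SD and at 13.6%, outside the range of the other 14 in all 3 panels.

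Here and below a difference is the limma estimate of log2(value + 1) ± its standard error, and genes are said to rise or fall only where the p-value, adjusted by Benjamini-Hochberg over all 11247 genes, was under 0.05. In A53T at 0.2 µM, 8477 genes differed from vector in DMSO, which is 75.4% of those tested: 4187 rose (37.2%) and 4290 fell (38.1%). These shares are the background for the gene list counts of this comparison below. In 9991 genes (88.8%) the 3 libraries of each group did not overlap. The rises were larger than the falls: 2655 genes lay over 2-fold higher and 1850 over 2-fold lower, 1230 and 174 over 4-fold, and 219 and 3 over 16-fold. The median gene did not shift (0.00) and the quartiles stood at -0.72 and 0.94. Scaling all libraries to 1 total moved the median gene to 0.16 and gave 4632 rises and 3737 falls, and quantile normalization moved it to -0.21 and gave 3699 and 5069. With the axis score as covariate 1766 of the 11247 genes rose and 2177 fell, which is the background for list counts in that fit. The quartiles narrowed there to -0.41 and 0.39.

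Set beside the same reference, vector at 0.2 µM had 18.3% of genes past the threshold, A53T in DMSO 14%, vector at 2.0 µM 47.2% and A53T at 2.0 µM 50%. Genes over 2-fold from vector numbered 138 higher and 120 lower in vector at 0.2 µM, and 312 higher and 908 lower in A53T at 2.0 µM. A53T at 0.2 µM thus lay farther from vector in DMSO than A53T at 2.0 µM by both counts. These comparisons share the vector DMSO libraries.

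The genes that A53T changed without the drug give the frame for a return. In DMSO 1579 genes (14%) differed between A53T and vector, 658 higher (5.85%) and 921 lower (8.19%). Of these, 128 (8.11%) stood at the vector level at 0.2 µM, by which is meant that the 90% interval of the difference from vector lay within 1.5-fold and that the gene had moved toward vector from its level in A53T DMSO (adjusted p under 0.05, which 67.8% of all genes passed between these A53T groups in either direction). The interval alone was within 1.5-fold for 20.6% of all genes tested. A further 1246 genes (78.9%) still differed from vector in the same direction, 66 (4.18%) differed in the opposite direction, and 139 (8.80%) met none of these conditions. Among the 760 genes that A53T lowered and that stayed low, the median difference from vector was -0.47 in DMSO and -1.004 at 0.2 µM. Among the 486 raised and still high it was 0.43 and 0.98.

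The count of 1579 leans on single libraries. It became 1044, 1047 and 957 without replicate 1, 2 or 3 of vector in DMSO, and 413 and 565 without replicate 1 or the unnumbered library of A53T in DMSO. It became 4390 without 3 libraries that stood apart in their own groups (vector 0.2 µM replicate 1, vector 2.0 µM replicate 2, A53T 2.0 µM replicate 1), 4172 when those 2 groups alone were fitted, and 3842 with the axis score as covariate. The share at the vector level was between 5.54 and 9.93% in these and the other alternative fits, at the same 1.5-fold margin. The lowest share sets 231 genes, from a fit that included A53T at 0.2 µM, against the 4172 from the fit without it. This range leaves out a stricter set, genes that A53T changed at least 1.5-fold. In that set 17 were at the vector level, 412 still differed and 10 were past it. Both comparisons use the same vector libraries, and genes picked for a difference in 1 comparison lie nearer to the reference in other libraries on average, whatever their treatment.

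Ion channel genes made up part of the group at the vector level. Of 26 measured potassium, sodium and calcium channel genes, 9 fell and 0 rose in A53T DMSO, where 8.19% of all genes fell and 5.85% rose. At 0.2 µM 5 of these 9 were at the vector level, 1 was past it, 2 were still lower and 1 was not resolved. Of all 921 genes lower in A53T DMSO, 6.73% were at the vector level. At 0.2 µM 15 of the 26 channel genes stood above vector DMSO (median 1.35). Whether the 5 returned or moved with this rise was not tested. Kcnc2, a fast potassium channel of fast-spiking neurons, read 629, 651 and 604 in vector DMSO, 417 and 365 in A53T DMSO and 663, 592 and 671 in A53T at 0.2 µM. The first and last sets overlapped (0.03 ± 0.14, 90% interval -0.21 to 0.28), and both lay above the middle one. Cacna1g, a low-voltage-activated calcium channel, read 1348, 1503 and 1395, then 888 and 860.4, then 1286, 1263 and 1333, a difference from vector of -0.13 ± 0.13 (90% interval -0.36 to 0.10). Kcnc2 and Cacna1g kept this class in 20 of 20 alternative fits, Cacna1h in 18 and Cacna1a in 14. A further 2 channel genes at the vector level were chosen for mention after their values were seen. They are Cacna1a, the P/Q-type channel that triggers release at terminals (0.25 ± 0.12, after -0.54 in A53T DMSO), and Cacna1h (-0.11 ± 0.12 after -0.53). Being at the vector level does not mean that the libraries overlapped. All A53T libraries at 0.2 µM lay above those of vector DMSO for Cacna1a and below them for Cacna1g and Cacna1h.

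The same dose in vector cultures and the higher dose in A53T cultures did not give the same values. Kcnc2 fell in vector at 0.2 µM (-0.50, adjusted p = 0.00473), where its libraries read 453, 467 and 411. In A53T at 2.0 µM it read 239.8, 297 and 244, below both A53T DMSO libraries. Cacna1g stood at -0.10 (adjusted p = 0.479) in vector at 0.2 µM and at -1.38 in A53T at 2.0 µM. For both genes the level nearest to vector DMSO among the A53T groups was that at 0.2 µM.

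Synj2, which encodes a phosphatase of membrane inositol lipids, had the largest A53T difference among the genes at the vector level. Its 3 vector DMSO libraries read 262, 224 and 257, its A53T DMSO libraries 89.98 and 115 and its A53T libraries at 0.2 µM 264, 245 and 254. The A53T difference of -1.27 in DMSO became 0.04 ± 0.21 at 0.2 µM, and stood at -2.12 at 2.0 µM. After quantile normalization Synj2 was lower than vector at 0.2 µM (-0.46, adjusted p = 0.0387). Rimbp2, a scaffold that ties calcium channels to the release site, went from -0.63 in A53T DMSO to -0.07 ± 0.14 at 0.2 µM. Cntnap1, an axonal adhesion protein at the edge of nodes of Ranvier, went from -0.67 to -0.22 ± 0.13, and the cation channel Trpc4 from -0.83 to -0.20 ± 0.19. All Cntnap1 values at 0.2 µM still lay below those of vector DMSO. The long noncoding RNA Miat went from -0.78 to -0.06 ± 0.15. Once the axis score was a covariate, Cntnap1 (-0.84, adjusted p = 9.39e-06) and Rimbp2 (-0.60, adjusted p = 0.00854) were lower than vector, while Miat (-0.26, adjusted p = 0.397), Synj2 (-0.50, adjusted p = 0.264) and Trpc4 (-0.52, adjusted p = 0.235) did not pass.

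Genes higher in A53T DMSO and at the vector level at 0.2 µM numbered 66. Sat1, the enzyme that acetylates polyamines for breakdown, read 1656, 1949.9 and 1776 in vector, 2901 and 2599 in A53T DMSO and 2037, 2020.4 and 1980.4 at 0.2 µM (0.17 ± 0.12). Its A53T libraries in DMSO were above both other sets, and those at 0.2 µM lay just above the vector libraries. Further members come from the lists and were chosen after their values were seen. The heme oxygenase Hmox1, an Nrf2 target, went from 0.58 to 0.16 ± 0.16. Atf5, a transcription factor of the integrated stress response, went from 0.38 to -0.04 ± 0.09. The copper carrier Cp went from 0.57 to -0.00 ± 0.16, and the matrix protein Sparc from 0.28 to -0.10 ± 0.07, or 0.29 (adjusted p = 0.00891) after quantile normalization. Of these, Cp fell in vector given the same dose (-1.07, adjusted p = 1.48e-04), as did Hmox1 (-0.67, adjusted p = 0.00242). With the axis score as covariate Sat1 was higher than vector (0.57, adjusted p = 0.00691) and Cp lower (-0.54, adjusted p = 0.0491). Dlgap1, a postsynaptic scaffold, and Srebf2, the master regulator of cholesterol synthesis, were lower in A53T DMSO (-0.51 and -0.28) and at the vector level at 0.2 µM (0.12 ± 0.09 and 0.16 ± 0.09). All A53T libraries at 0.2 µM lay above those of vector DMSO for Dlgap1 and Srebf2 and below them for Sparc. Over the same 20 fits Srebf2 kept this class in 9, Hmox1 in 12, Cntnap1 and Trpc4 in 15 each, and the remaining genes named here and beside Synj2 in 16 to 19.

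Gdf15, a secreted stress cytokine, was singled out after its values were seen. It read 47.6, 57.1 and 75.6 in vector DMSO, 380.2 and 394 in A53T DMSO and 73.1, 60.8 and 66.9 in A53T at 0.2 µM. Its A53T difference of 2.69 (adjusted p = 1.12e-05) in DMSO was 0.18 ± 0.25 (adjusted p = 0.52) at 0.2 µM, and its libraries there lay inside the vector range. The 90% interval, -0.26 to 0.62, reached beyond 1.5-fold, so Gdf15 was not counted at the vector level. It stood at 1.96 in A53T at 2.0 µM and at 6.10 in vector at 2.0 µM, where its libraries read 3926.5, 4761 and 3743. In vector at 0.2 µM the difference was -0.32.

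The 66 genes that passed beyond the vector level include Dio2, the deiodinase with which astrocytes activate thyroid hormone. Dio2 read 22.2, 21.4 and 23.4 in vector DMSO, 7.14 and 11.8 in A53T DMSO and 152, 131 and 126 at 0.2 µM. It was lower in A53T DMSO (-1.19) and rose above vector at 0.2 µM (2.56 ± 0.28, adjusted p = 6.66e-06), and the 3 groups did not overlap. Dio2 also rose in vector at 0.2 µM (0.93, adjusted p = 0.00753). The active zone protein Bsn went from -0.37 to 1.12 ± 0.10, the potassium channel Kcnc1 from -0.68 to 0.57 ± 0.14, and the peptidase Trhde, which degrades thyrotropin-releasing hormone, from -1.15 to 1.32 ± 0.35. Stard4, which carries cholesterol between membranes, went from -0.95 to 1.36 ± 0.36. In the other direction, the histamine receptor Hrh3 went from 0.61 to -0.35 ± 0.11, the tubulin Tubb6 from 0.57 to -0.76 ± 0.18, and the cholesterol-esterifying enzyme Lcat from 0.78 to -0.68 ± 0.21. In the fit adjusted for the axis score Bsn (1.02) and Dio2 (2.57) still passed (adjusted p = 1.23e-05 and 5.07e-04). Kcnc1, Trhde, Tubb6, Lcat, Hrh3 and Stard4 did not, and Stard4 changed sign (-0.46, adjusted p = 0.402). Stard4 kept its class in 12 of the 20 alternative fits, Tubb6 in 14 and the other 6 in 17 to 19. Hrh3 did not pass after scaling to 1 total, Trhde after quantile normalization, or Lcat when groups outside the comparison were dropped from the fit.

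**Figure D2:**
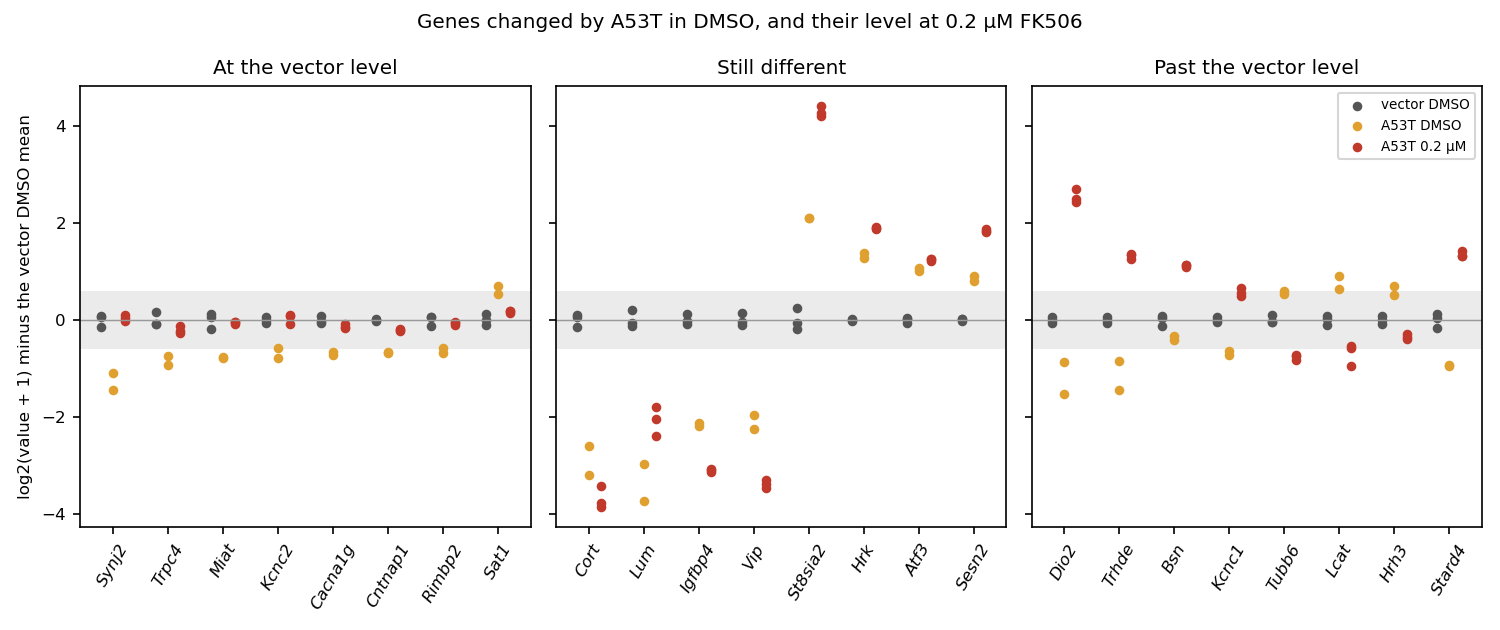
Difference of each library from the vector DMSO mean, in log2(value + 1), for 8 genes of each class among the 1579 genes that A53T changed in DMSO; each point is 1 library and the grey band marks 1.5-fold. In the left panel the A53T libraries at 0.2 µM (red) lie near 0 while those in DMSO (orange) lie below it, or above it for Sat1; in the middle panel red stays on the orange side, and in the right panel it lies on the opposite side.

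Most genes that A53T changed stayed changed. St8sia2, which builds polysialic acid on neural adhesion molecules, read 5.67, 5.12 and 7.19 in vector DMSO, 29.0 and 28.8 in A53T DMSO and 133, 127 and 147 at 0.2 µM. The 3 sets formed steps without overlap, up to a difference of 4.30 ± 0.36 (adjusted p = 1.08e-06). Igfbp4, which binds insulin-like growth factors, read 1389, 1332 and 1535, then 325 and 311, then 167, 165 and 159 and fell by 3.11 at 0.2 µM (adjusted p = 8.81e-08). Crhbp, which binds corticotropin-releasing hormone, fell as well (-3.35 ± 0.26, after -2.46 in A53T DMSO). The matrix proteoglycan Lum was the opposite case, nearer to vector at 0.2 µM (-2.06 ± 0.44) than in A53T DMSO (-3.37, adjusted p = 0.0263 between the A53T groups) and still low.

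Many genes that A53T had not been shown to change in DMSO differed at 0.2 µM. Of 6356 genes that did not pass in A53T DMSO and whose 90% interval there lay within 1.5-fold of vector, 4722 (74.3%) were called at 0.2 µM, 1885 of them higher. The share called over all genes is 75.4%, so these genes do not stand out from the rest by this count.

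Most channel and postsynaptic genes rose. Of the 26 channel genes 15 rose and 2 fell (median 1.35, against 0.00 over all genes), and of 24 postsynaptic density genes 19 rose and 3 fell (median 1.33). Kcna2, a potassium channel of axons, read 6.77, 8.18 and 7.20 in vector DMSO and 762, 692 and 712 in A53T at 0.2 µM, a 97.8-fold higher mean. It stayed at or below 14.3 in every library of the other 5 groups. Cacna1e, the R-type calcium channel, read 63.0, 69.3 and 65.2 and 3568, 3448 and 3687 (5.74 ± 0.35), and Kcnq3, a subunit of the M-type potassium channel, 103, 70.4 and 71.0 and 2239.9, 2323 and 2272 (4.81 ± 0.30). For both genes the A53T libraries at 0.2 µM were the highest of all 17.

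The NMDA receptor subunits Grin2a and Grin2b, which give the receptor its kinetics, rose too. Grin2b read 169, 139.7 and 185 in vector DMSO, 233 and 264 in A53T DMSO and 1486, 1563 and 1519 in A53T at 0.2 µM (3.21 ± 0.16, adjusted p = 8.81e-08). Its A53T DMSO libraries had risen above vector by 0.60, and the libraries at 0.2 µM lay far above both. Grin2a read 27.7, 27.6 and 28.1 and 819.5, 775 and 830.2 (4.81 ± 0.51). The scaffold Dlg2 of the postsynaptic density rose by 3.09 ± 0.21, while Dlgap3, of the family of scaffolds that bind it, fell by 1.57. Adjusted for the axis score, 9 channel genes rose and 2 fell (median 0.20), and 7 postsynaptic genes rose and 7 fell (median -0.02). Kcna2 (4.44), Cacna1e (4.81), Kcnq3 (3.82), Grin2a (3.50) and Grin2b (3.19) passed in that fit too.

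Map2, the dendritic microtubule protein, was singled out after its values were seen, since it marks the reach of the axis. It read 763, 473 and 427 in vector DMSO and 18720.0, 17885 and 18734 in A53T at 0.2 µM, a 33.3-fold higher mean (5.10 ± 0.89, adjusted p = 2.22e-04). Other groups varied widely as well, with 409.8, 1484 and 1327 in vector at 0.2 µM and 71.8, 212 and 423 in A53T at 2.0 µM. Once the axis score was a covariate, its difference was 0.04 (adjusted p = 0.907). The rises of Lmbrd2 (6.18 ± 0.87) and Stox2 (6.09 ± 0.91) likewise no longer passed in that fit (adjusted p = 0.061 and 0.0883).

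**Figure D3:**
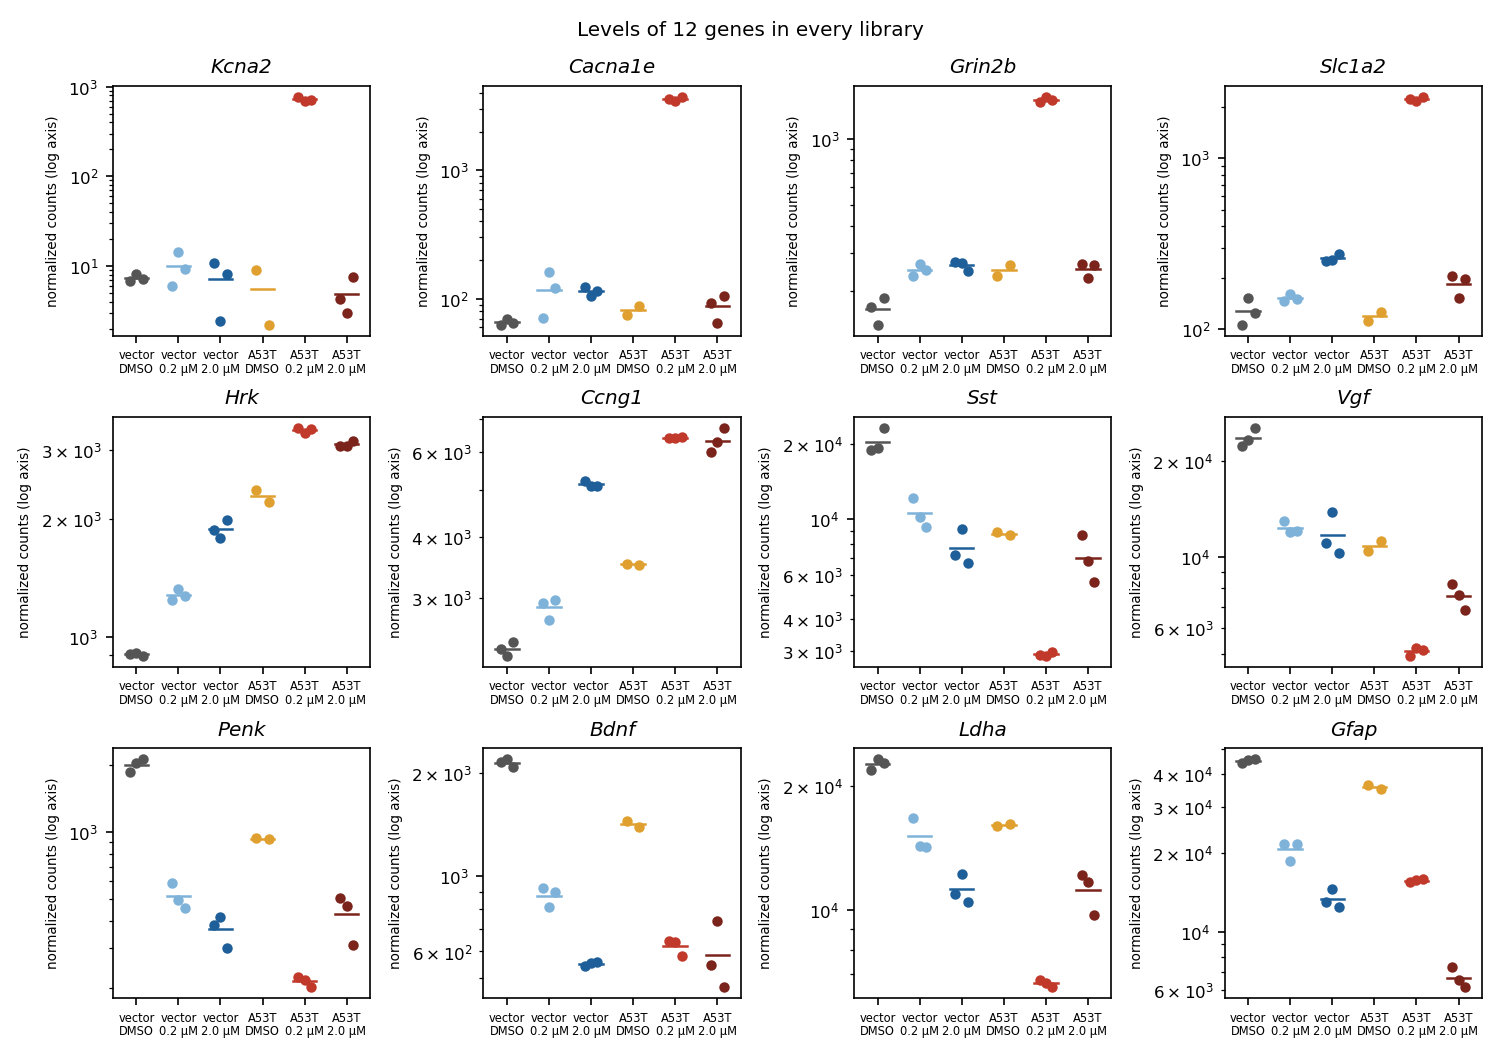
Normalized counts of 12 genes in all 17 libraries on log axes, by group; each point is 1 library and the bar is the group mean. Kcna2, Cacna1e, Grin2b and Slc1a2 are high in the A53T libraries at 0.2 µM alone among the libraries plotted, whereas Sst, Vgf, Penk and Ldha step down from vector DMSO through the other groups to their lowest values there.

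Presynaptic genes moved both ways. Of 26 measured, 12 rose and 9 fell, near the shares of all genes (37.2% and 38.1%). Differences in this list ranged from -1.32 to 4.65. The falls included the GTPase Rab3a (-1.004 ± 0.085), the fusion clamp Cplx1 (-0.91 ± 0.07) and the SNARE protein Stx1a (-1.20 ± 0.10). Each of these 3 was already lower in A53T DMSO (-0.25, -0.29 and -0.47), and none stood nearer to vector at 0.2 µM. Sncb, the β-synuclein of the same terminals, read 17185, 18434 and 19381 in vector DMSO and 6335, 6422 and 6351 in A53T at 0.2 µM (-1.52 ± 0.15), without overlap. The list of synuclein family and Parkinson's disease genes had no common direction. Of its 14 measured genes 6 rose and 6 fell (42.9% each, against 37.2 and 38.1% of all genes), with a median of -0.05. Its falls included Pink1, a kinase of damaged mitochondria (-1.01 ± 0.07), and Atp13a2, a lysosomal polyamine transporter (-0.76 ± 0.07). Its largest rise was 2.55.

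Genes of secreted peptides changed mostly in 1 direction. Of 20 measured, 17 fell and 3 rose (median -1.85), and 12 of them had already fallen in A53T DMSO. All 12 were still lower at 0.2 µM. Sst, which encodes somatostatin, the peptide of a class of inhibitory neurons, read 18916, 19281 and 23034 in vector DMSO, 8892 and 8675 in A53T DMSO and 2897, 2873 and 2981 at 0.2 µM (-2.80 ± 0.22, adjusted p = 7.23e-07). Vgf, a neuropeptide precursor released with neuronal activity, read 22384, 23325 and 25364, then 10454 and 11272, then 4929, 5223 and 5143 (-2.21 ± 0.15, adjusted p = 2.60e-07). In both genes the 3 groups formed separate steps, with the A53T libraries at 0.2 µM at the bottom. The opioid precursor Penk read 1857, 2054 and 2125 and 224, 216 and 202 (-3.22 ± 0.24), a 9.39-fold lower mean. The neurotrophin Bdnf read 2166, 2199.5 and 2092, 1446 and 1391 and 643, 639.7 and 584 across the same 3 groups (-1.79 ± 0.17). The intestinal peptide Vip (-3.39 ± 0.35), cholecystokinin Cck (-2.57 ± 0.26) and the granule protein Chgb (-1.47 ± 0.11) fell with them, as did the nociceptin precursor Pnoc (-3.44 ± 0.29), which is outside the list.

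The same dose lowered Sst (-0.95), Vgf (-0.94), Penk (-1.97) and Bdnf (-1.30) in vector cultures, and at 2.0 µM these genes stood at -1.55, -1.65, -2.26 and -1.90 in A53T. After adjustment for the axis score, 16 of the 20 peptide genes fell and 0 rose (median -1.37), and Sst (-1.66), Vgf (-1.59), Penk (-2.14) and Bdnf (-1.64) passed.

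Sst, Vgf and the lactate dehydrogenase gene Ldha, described below, are shown with their promoters because each holds an exact cAMP response element, the site of CREB and CRTC. Each window runs from 250 bases before to 50 bases after the annotated start, from RefSeq on the rat build GRCr8, given 5′ to 3′ on the gene's own strand. The capitals mark the element, TGACGTCA, which reads the same on both strands. The Sst window is chr11:90461296-90461595 (+ strand), with the element beginning at position 2 relative to the annotated start. The Vgf window is chr12:25276971-25277270 (- strand), with the element at position -90, and the Ldha window is chr1:106507842-106508141 (+ strand), with the element at position -51.
Sst: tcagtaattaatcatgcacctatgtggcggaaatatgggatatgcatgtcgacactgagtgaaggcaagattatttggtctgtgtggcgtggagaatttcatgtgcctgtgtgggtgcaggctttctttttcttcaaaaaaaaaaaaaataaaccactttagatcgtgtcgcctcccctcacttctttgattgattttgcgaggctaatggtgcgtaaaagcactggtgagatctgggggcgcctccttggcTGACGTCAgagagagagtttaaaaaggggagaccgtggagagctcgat
Vgf: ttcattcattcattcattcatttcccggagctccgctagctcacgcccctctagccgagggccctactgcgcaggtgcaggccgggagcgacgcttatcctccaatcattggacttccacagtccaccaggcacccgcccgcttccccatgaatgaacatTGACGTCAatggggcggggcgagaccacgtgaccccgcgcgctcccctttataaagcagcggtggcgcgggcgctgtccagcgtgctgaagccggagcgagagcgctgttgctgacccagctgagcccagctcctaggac
Ldha: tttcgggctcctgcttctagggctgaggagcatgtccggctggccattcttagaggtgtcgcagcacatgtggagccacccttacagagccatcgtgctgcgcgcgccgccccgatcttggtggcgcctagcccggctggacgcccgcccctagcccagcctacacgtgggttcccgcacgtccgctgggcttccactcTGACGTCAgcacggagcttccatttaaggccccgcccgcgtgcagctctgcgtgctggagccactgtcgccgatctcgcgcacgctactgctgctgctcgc
Promoters were matched for 8752 of the 11247 gene labels (77.8%). Of these 296 (3.38%) hold TGACGTCA. The share was 4.21% (142 of 3374) among genes that fell, 2.93% (95 of 3243) among genes that rose, and 1.12% (1 of 89) among those at the vector level. All 3 shares are small, and the promoters shown were picked for holding the element, so they do not stand for the falls as a whole.

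Calcineurin and its partners showed no common direction. Of 14 measured genes 4 rose (28.6%, against 37.2% of all genes) and 6 fell (42.9%, against 38.1%). The median was -0.08, or 0.08 after scaling to 1 total and 0.04 after quantile normalization. Ppp3ca, the main catalytic subunit of the brain, read 2533, 2441 and 2339 in vector DMSO and 4258, 4269.5 and 4305 in A53T at 0.2 µM, without overlap (0.81 ± 0.23, adjusted p = 0.00685). Ppp3cb, the second catalytic subunit, stood at 0.58 ± 0.30 and did not pass (adjusted p = 0.0956), and the regulatory subunit Ppp3r1 at 0.15 ± 0.10 (adjusted p = 0.187). Adjusted for the axis score, both catalytic subunits were lower than vector instead (Ppp3ca -0.44, adjusted p = 0.0128, and Ppp3cb -1.01, adjusted p = 2.09e-04).

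Fkbp1a, which encodes FKBP12, the protein that FK506 binds, read 13328, 14797 and 14264 in vector DMSO, 12668 and 12716 in A53T DMSO and 7033, 7092 and 7076 at 0.2 µM (-0.998 ± 0.128, adjusted p = 2.19e-05). These were the 3 lowest values of all 17 libraries, and in vector given the same dose the difference was -0.28. Of the calcineurin inhibitors, Rcan1 fell by 0.50 and Rcan2 fell by 0.77, the latter after -0.42 in A53T DMSO. In the fit adjusted for the axis score Rcan2 passed (-0.63) and Rcan1 did not (-0.29, adjusted p = 0.102). Calm2 (-0.81 ± 0.08) and Calm3 (-0.62 ± 0.09), which encode the calmodulin that switches calcineurin on, fell too.

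Of 9 measured NFAT and CRTC genes and their MEF2 partners, 8 rose and 0 fell (median 1.90). Nfatc3 read 106, 97.9 and 92.9 in vector DMSO, 141 and 138 in A53T DMSO and 383, 372 and 359 at 0.2 µM (1.90 ± 0.15), in 3 separate steps. Crtc1 rose by 1.95 ± 0.35 and Mef2a by 3.42 ± 0.51, whereas Nfatc2 stood at -0.20 ± 0.41 (adjusted p = 0.666). After adjustment for the axis score, 3 rose and 1 fell (median 0.22). Nfatc3 passed there (1.79), Crtc1 (0.13) and Mef2a (0.55) did not, and the gene that fell was Nfatc2 (-2.10).

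Most genes of energy metabolism fell. Of 22 nuclear genes for subunits of oxidative phosphorylation 21 fell and 0 rose (median -1.61), of 16 glycolysis genes 14 fell and 2 rose (median -1.06), and of 14 genes of the TCA cycle 11 fell and 2 rose (median -0.68). Of 12 genes of glucose and lactate transport 7 fell and 2 rose (median -0.72). Ldha, which turns pyruvate into lactate, read 21954, 23263 and 22733 in vector DMSO, 15983 and 16222 in A53T DMSO and 6762, 6642 and 6509 at 0.2 µM (-1.77 ± 0.13, adjusted p = 4.39e-07). Its A53T libraries at 0.2 µM were the lowest of all 17. The partner subunit Ldhb (-1.59 ± 0.16), the glycolytic kinase Pgk1 (-1.14 ± 0.09), the complex III subunits Cyc1 (-1.54 ± 0.15) and Uqcrfs1 (-1.25 ± 0.11), and the TCA enzyme Mdh2 (-1.41 ± 0.14) fell with it.

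A53T had already lowered 12 of the 16 glycolysis genes in DMSO, and all 12 were still lower at 0.2 µM. In oxidative phosphorylation 5 of 22 had fallen in A53T DMSO, and all 5 were still lower. The same dose lowered 13 of the 16 and 13 of the 22 in vector cultures. In the fit adjusted for the axis score 14 glycolysis genes, 13 TCA genes and all 22 of oxidative phosphorylation fell, with medians of -0.71, -0.39 and -0.63.

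Genes for cytosolic ribosomal proteins, which are short and abundant transcripts, fell in 26 of 26 cases (median -1.35). Rpl11 read 6593, 7326 and 7691 in vector DMSO and 2408, 2392 and 2463 at 0.2 µM (-1.57 ± 0.24). In A53T DMSO 0 of the 26 were called in either direction, and with the axis score as covariate 3 fell and 0 rose (median -0.07). Of 22 proteasome genes 20 fell and 1 rose (median -1.16), among them the catalytic Psmb5 (-1.76 ± 0.19). In that fit 15 fell and 0 rose (median -0.38). Of 13 housekeeping genes 9 fell and 2 rose, with Gapdh at -1.58 ± 0.16 and Ppia at -1.56 ± 0.16. The summed ribosomal protein genes ranged from 140576 to 141499 normalized counts in A53T at 0.2 µM and from 306391 to 349421 in vector DMSO.

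**Figure D4:**
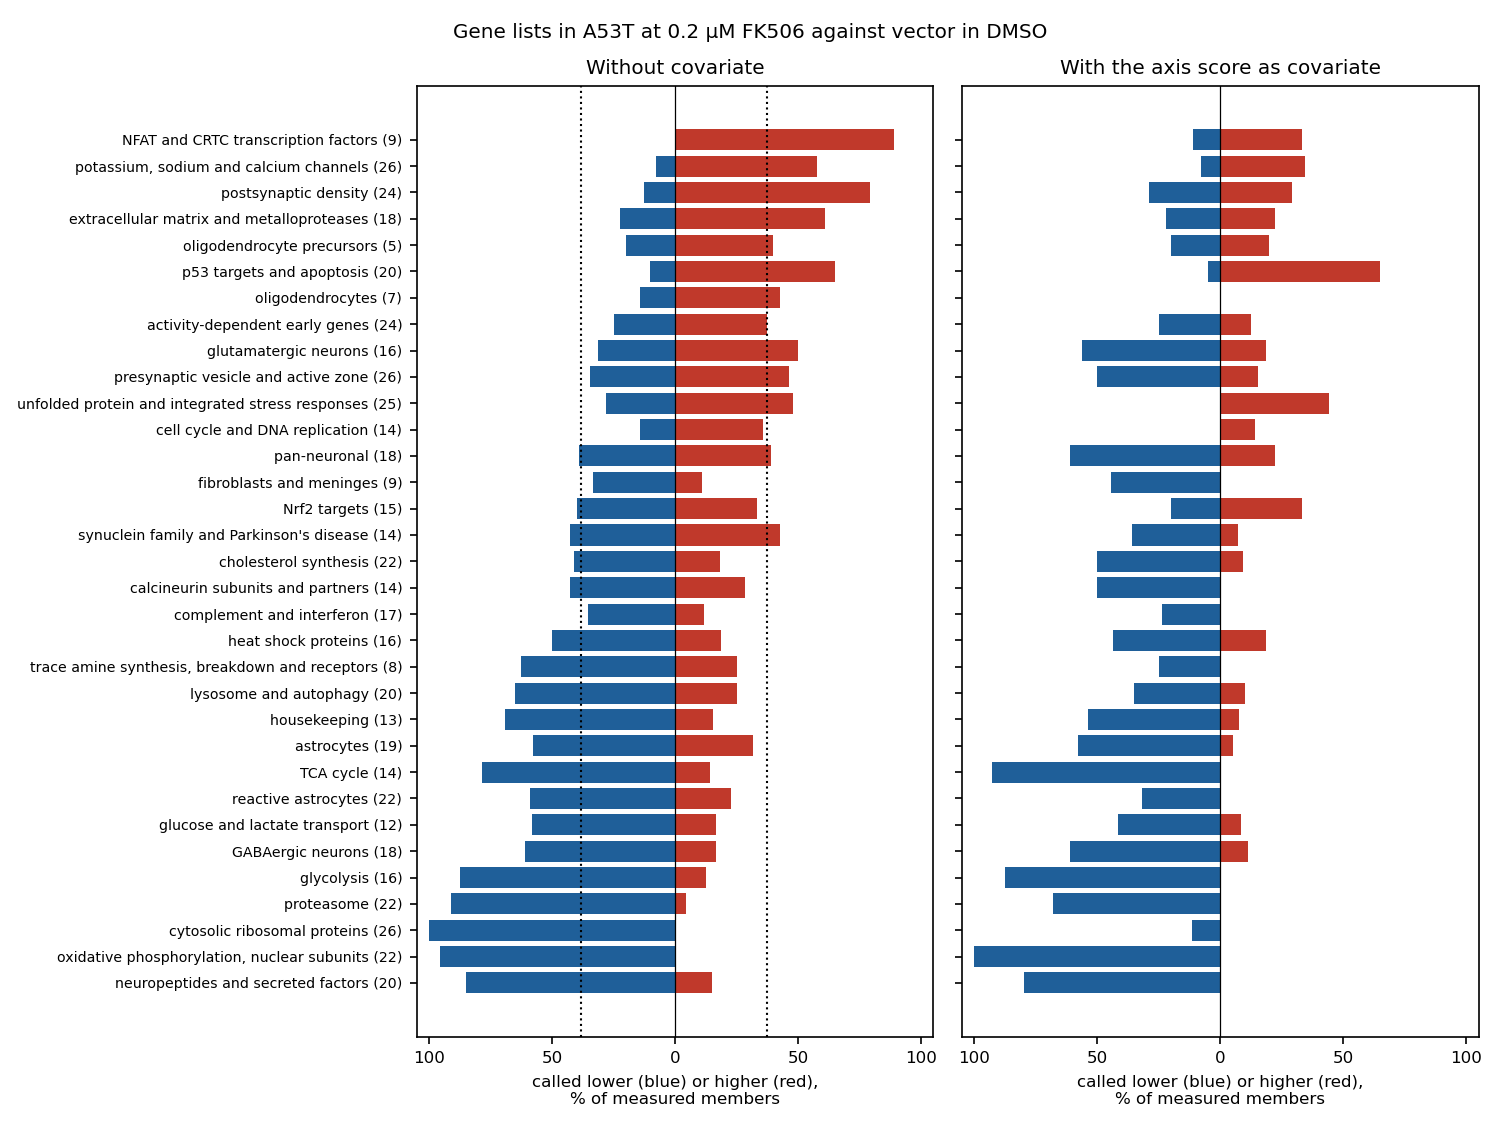
Share of each gene list's measured members (number in parentheses) that were called higher (red, right) or lower (blue, left) in A53T at 0.2 µM against vector in DMSO, in %. The left panel is without a covariate and the right panel with the axis score as covariate. Dotted lines, in the left panel only, mark the shares over all genes, 37.2% higher and 38.1% lower. In the covariate fit 1766 of all 11247 genes were higher and 2177 lower. Ribosomal protein genes go from 26 lower to 3 lower between the panels, while oxidative phosphorylation, glycolysis and neuropeptide genes stay mostly lower and p53 targets mostly higher.

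Markers of the labelled cell types were present. The counts of markers that rose or fell stand against 37.2 and 38.1% of all genes. Summed markers of glutamatergic neurons ranged from 21318 to 22703 normalized counts in vector DMSO and from 19178 to 19711 in A53T at 0.2 µM, and 8 of 16 rose and 5 fell. Summed astrocyte markers ranged from 141088 to 143624 and from 89299 to 89944, and 11 of 19 fell and 6 rose. In such bulk libraries fewer cells of a type and less RNA per cell cannot be told apart. Summed markers of GABAergic neurons, a type the labels do not name, ranged from 53530.0 to 58496 in vector DMSO and from 24813 to 25354 at 0.2 µM, and 11 of 18 fell and 3 rose. Their part in the peptide results above was not tested, and Sst, Vip, Cort and Cck stand in both lists. Much of the drop in the GABAergic sum lay in Sst and Cck. The mean of Sst was 20411 in vector DMSO and 2917 at 0.2 µM, and that of Cck 12342 and 2068. The vesicular GABA transporter Slc32a1 read 4211, 4301 and 4493 and 1959.5, 2080.4 and 1998 (-1.11 ± 0.08), and the zinc transporter Slc30a3 of glutamatergic vesicles 2242, 2067 and 2234 and 425, 479 and 472 (-2.25 ± 0.17). Both had fallen in A53T DMSO (-0.64 and -1.42) and lay lower still at 0.2 µM. Slc30a3 had the lowest difference of the 16 glutamatergic markers, so it does not stand for that list. Its median was 0.50 and its largest rise 2.90.

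Astrocyte genes split. Gfap, the filament of reactive astrocytes, read 44127, 45115 and 45477 in vector DMSO, 36398 and 34947 in A53T DMSO and 15438, 15764 and 15830.0 at 0.2 µM (-1.52 ± 0.12, adjusted p = 6.04e-07). In vector at 0.2 µM it fell by 1.13, to 21672, 18576 and 21571. Slc1a2, the main glutamate transporter of astrocytes, moved the other way, from 106, 151 and 124 to 2229.8, 2178 and 2278 (4.14 ± 0.20), and kept this rise with the axis score as covariate (4.28, adjusted p = 1.96e-08). Both genes lay outside the vector DMSO range in every A53T library at 0.2 µM. Of 22 reactive astrocyte genes 13 fell (59.1%, against 38.1% of all genes), including Vim (-1.43 ± 0.16), and 5 rose (median -0.69). Of 17 complement and interferon genes 6 fell (35.3%, against 38.1% of all genes) and 2 rose. The complement inhibitor Serping1 fell (-1.38 ± 0.12). The complement factor Cfb read 96.8, 88.6 and 119.9 in vector DMSO and 7.06, 8.06 and 4.96 at 0.2 µM (-3.73 ± 0.36). Adjusted for the axis score, 7 reactive astrocyte and 4 complement and interferon genes fell, and 0 of either rose.

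Other cell types were thinly represented. Of 17 microglia and macrophage markers 2 were measured, Cd68, a lysosomal protein not limited to these cells (1.07 ± 0.21), and Laptm5, at 17.4, 11.2 and 20.4 in vector DMSO and 2.28, 4.50 and 0.724 at 0.2 µM (-2.27 ± 0.41, or adjusted p = 0.0839 with the axis score as covariate). Of 11 endothelial markers 2 were measured and 0 were called. Summed oligodendrocyte markers went from 1564 to 1601 normalized counts in vector DMSO to 1929 to 1986 at 0.2 µM, with 3 of 7 higher and 1 lower. Summed markers of fibroblasts and meninges went from 7475 to 8213 down to 4451 to 4546, with 3 of 9 lower and 1 higher. Summed pericyte and smooth muscle markers went from 1010.2 to 1174 up to 1696 to 1793, with 3 of 4 higher and 1 lower, and 3 of 4 ependymal markers fell. The part of these cells in the results was not tested.

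Of 20 p53 targets and apoptosis genes 13 rose and 2 fell (median 0.76). In A53T DMSO 10 of them rose, of which 9 were still higher at 0.2 µM and 1 was not resolved. Hrk, which promotes apoptosis of neurons, read 905, 911 and 896 in vector DMSO, 2370.4 and 2209 in A53T DMSO and 3398, 3310.2 and 3386 at 0.2 µM (1.90 ± 0.07, adjusted p = 4.13e-08). Ccng1, a cyclin induced by p53, read 2362, 2287 and 2435, then 3533 and 3508, then 6398, 6399 and 6433 (1.44 ± 0.08, adjusted p = 9.20e-08). For both genes the A53T libraries at 0.2 µM were above those in DMSO, and Hrk (0.50) and Ccng1 (0.28) also rose in vector at 0.2 µM. After adjustment for the axis score, 13 of the 20 rose and 1 fell (median 0.72).

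Genes of the unfolded protein and integrated stress responses rose in 12 of 25 cases (48%, against 37.2% of all genes). They fell in 7 (28%, against 38.1%), and their median was 0.28. In A53T DMSO 10 of them rose, of which 7 were still higher at 0.2 µM, 1 was at the vector level and 2 were not resolved. Atf3, a transcription factor of both responses, read 613, 659.5 and 642 in vector DMSO, 1291 and 1352 in A53T DMSO and 1537, 1475 and 1535 at 0.2 µM (1.247 ± 0.154), and the step between the A53T groups did not pass (0.20, adjusted p = 0.294). Sesn2, induced by amino acid shortage and by p53, rose by 1.85 ± 0.23, and the chaperone partner Dnajc3 by 1.27 ± 0.14. In the fit adjusted for the axis score 11 rose and 0 fell. The 24 activity-dependent early genes did not stand out from all genes in their rises (9, or 37.5%, against 37.2%), and 6 of them fell. They include Egr1 (2.17 ± 0.35) and Jun (0.96 ± 0.07), which rose, and Gadd45b (-2.58 ± 0.24), which fell. Egr1 was singled out after its values were seen, and it did not pass with the axis score as covariate (0.66, adjusted p = 0.149).

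Lysosome and autophagy genes were mostly lower (13 of 20, or 65%, against 38.1% of all genes), with 5 higher (25%, against 37.2%). Of 16 heat shock genes 8 fell (50%) and 3 rose (18.8%). The falls among Nrf2 targets (6 of 15, or 40%) and cholesterol synthesis genes (9 of 22, or 40.9%) were near the share of all genes. Their rises numbered 5 (33.3%) and 4 (18.2%). The sterol enzymes Mvd (-1.95 ± 0.17) and Msmo1 (-1.08 ± 0.09) fell, after -0.81 and -0.32 in A53T DMSO, while Hsd17b7 (2.59 ± 0.19) and Sc5d (1.88 ± 0.22) of the same pathway rose. Slc7a11, the cystine importer and an Nrf2 target, rose (1.253 ± 0.163), although it had fallen in vector at the same dose (-0.97, adjusted p = 2.93e-04). Fth1, the ferritin heavy chain, held the highest values of the table and read 181090.0, 199780.0 and 204400.0 in vector DMSO, 253380.0 and 238320.0 in A53T DMSO and 68290.0, 68755 and 69579 at 0.2 µM (-1.50 ± 0.24). Its fall did not pass with the axis score as covariate (-0.32, adjusted p = 0.0698) or after quantile normalization. The trace amine list, which covers synthesis, breakdown and receptors of compounds such as octopamine, had 8 measured genes, of which 2 rose and 5 fell. The monoamine oxidase Maoa rose (0.79 ± 0.15, or 0.05 and adjusted p = 0.833 with the axis score as covariate). The tyrosine hydroxylase Th read 22.9, 23.4 and 27.3 in vector DMSO and 3.06, 2.63 and 6.79 at 0.2 µM (-2.30 ± 0.50). The adrenergic receptor Adra2a fell (-1.14 ± 0.17, or -0.59 and adjusted p = 0.0832 with that covariate).

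The deepest fall belonged to Pstpip1, an adaptor that links membranes to actin. It read 123, 162 and 158 in vector DMSO, 26.3 and 29.8 in A53T DMSO and 0, 2.60 and 3.24 at 0.2 µM, where 1 library was at 0. Its fitted difference was -5.65 ± 0.40 (adjusted p = 3.91e-07), and its vector libraries at 0.2 µM read 33.7, 21.1 and 19.8. Cort, the cortistatin of inhibitory neurons (-3.67 ± 0.47), Trim54 (-4.10 ± 0.58), a microtubule-binding ubiquitin ligase best known from muscle, and the citrate transporter Slc13a5 (-3.50 ± 0.63) also fell, and in all of these A53T DMSO was low already (-2.90, -2.51 and -1.88). Slc13a5 also stood at -3.53 in vector at 0.2 µM, and at that dose the difference between A53T and vector was 0.03. Trim54 did not pass with the axis score as covariate (-2.07, adjusted p = 0.0919). At such low levels the pseudocount of 1 understates a change. Fam107a, a stress-responsive actin-binding protein, fell (-2.08 ± 0.14) although its A53T difference in DMSO did not pass (-0.34, adjusted p = 0.0612).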

How the data were processed

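RNA of 17 samples was made into libraries with a stranded mRNA kit and sequenced, per the labels' protocols. The submitters' processing notes list rn6 as the genome build and, as tools, TopHat, HTSeq and FastQC. Their versions and the normalization are not given in the sources used here. From these steps the authors deposited normalized read counts per gene, used here as a signal that is never negative. They sum to 15091428 to 18335540 per library. Raw depth is unknown, so no counting interval is given.

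Values were analysed as log2(value + 1) with R 4.3.3 and limma 3.58.1 (trend and empirical Bayes), with 6 group means, 15 samples and 9 residual degrees of freedom. The 3 libraries of A53T at 0.2 µM entered as 1 by their mean. P-values were adjusted by Benjamini-Hochberg over all 11247 genes at 0.05. A minimum mean of 1 removed 0 genes, since the lowest mean was 3.65. The procedure was tested on simulated data. The leading axis is the first principal component of deviations from group means in the other 14 libraries.

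Of the 11247 labels, 10458 are current symbols and 11093 a symbol or synonym. The 23 date-like labels and 333 without a gene name were tested but not named. In A53T DMSO 1 library carries different numbers in its title and column, and was used as an unnumbered replicate. Equal replicate numbers do not pair the samples: deviations of same-numbered libraries of the groups compared correlated at 0.01, 0.01 and -0.00 across genes.

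The comparison, the gene lists and the tests were chosen with earlier results of these data known. Named genes are the 12 genes that rose most and the 12 that fell most (no overlap, mean 20 or higher), up to 4 members of each list by smallest p, the 12 largest A53T differences in each class, the calcineurin and NFAT genes, and the 6 largest rises and 6 largest falls within 1.5-fold of vector in A53T DMSO. From these the genes with a described role were taken, and others are said to have been chosen after their values were seen. Some genes are not reported here. Alternatives covered pseudocounts of 0.25 and 4, a minimum mean of 20 or none, 3 scalings, separate libraries, the replicate block, fewer groups or libraries, the axis covariate, and the margins and size of change that define the classes.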

Additional observations from a re-analysis of the deposited data

How the results depend on the processing

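The 4187 rises and 4290 falls stayed within 1.5 times in every alternative fit but the one with the axis score as covariate, which gave 1766 and 2177. The 1579 genes changed in A53T DMSO and, among them, the 128 at the vector level, 1246 still different and 66 past it depended more on the processing. With the axis covariate these were 3842, 257 and 1952 (past the vector level within 1.5 times), with other groups dropped from the fit 4172, 231, 3320 and 360, and without the 3 libraries that stood apart in their own groups 4390, 244, 3504 and 404. Leaving out 1 library gave 413 to 1580, 23 to 135, 357 to 1250 and 12 to 68. The genes past the vector level alone moved to 164 with all 17 libraries as separate samples, 122 after quantile normalization and 113 after scaling to 1 total. The narrower margin left 76 at the vector level, and asking for at least a 1.5-fold A53T change left 17, 412 and 10. The replicate block by title numbers, which drops the unnumbered library, gave 743, 48, 648 and 43, and the block by column numbers 115 past the vector level, with no other count moved as far. Leaving out the 3 libraries and the block by column numbers were chosen after seeing the data. Using no filter changed nothing, since the minimum removed no gene.

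Of 106 named genes, 73 kept both sign and side of the threshold with the axis covariate, 94 after quantile normalization, 94 after scaling to 1 total and at least 100 in every other fit that tested all 106. The 102 tested at a minimum mean of 20 all did. Among genes past the threshold in either of the fits compared, 6 changes of sign occurred: Sparc (0.29) and Synj2 (-0.46) after quantile normalization, and Hrh3 (0.0047), Ppp3ca (-0.44), Ppp3cb (-1.01) and Stard4 (-0.46) with the axis covariate. Genes past it in neither fit also changed sign, 8 with the axis covariate, 7 after scaling to 1 total, 3 after quantile normalization and at most 2 when 1 library was left out. The causes were not tested. Without raw counts, the precision of genes near 0 cannot be given.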
